A study of Mus musculus with 4 samples.

Results

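The genes of the phagocyte NADPH oxidase, together with Nos2 and Acod1, were followed across 4 myeloid populations sorted from tumours of EO771, a transplantable line of mouse mammary carcinoma cells. The members were taken by symbol from the deposited expression table: Cybb, Cyba, Ncf1, Ncf4, Rac2, Nos2 and Acod1, and all 7 were present among its 13976 genes. The populations were 2 conventional dendritic cell types, CD103+ cDC1 and CD11b+ cDC2, a CD11b+ dendritic cell population with intermediate CD103 (CD103int DC), and macrophages. Each had 1 library, so no difference was checked against replicate error and no test between populations was possible. The labels give for all 4 groups only the tumour and the cell type. Strain, age, number of mice, sort gates and any treatment are not stated in them, although the study's title names a heterodimeric interleukin-15 given near the tumour. The design compares the CD103int DC with the other populations.

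The phagocyte oxidase is an enzyme complex that passes electrons from NADPH across a membrane to oxygen and so makes superoxide, which phagocytes use to kill microbes and which dendritic cells can release into phagosomes. Cybb and Cyba encode the membrane core, Ncf1 and Ncf4 cytosolic proteins that join it on activation, and Rac2 the small GTPase that completes the assembly. Nos2 encodes the inducible nitric oxide synthase, which makes nitric oxide from arginine, and Acod1 the mitochondrial enzyme that makes itaconate from cis-aconitate. Nos2 and Acod1 are known as genes that macrophages switch on with interferon gamma and Toll-like receptor signals.

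Promoter sequence was given in RefSeq for 4 of the 7 members (build GRCm38.p6), and it is shown because Cybb, Cyba and Acod1 were lower in cDC1 than in the other libraries whereas Ncf1 was nearly level. Each run holds the 250 bases before the annotated start, 5′ to 3′ on the gene's strand. Capitals mark matches on either strand to any of 5 motifs: GAGGAA (the PU.1 and ETS core), GAAANNGAA (a shortened interferon-stimulated response element), TTCNNNGAA (the gamma-activated sequence), GGGNNTTCC (an NF-kappaB-type site) and CCAAT (the CCAAT box).
Cybb lies on the minus strand of chromosome X, and its run covers chrX:9469325-9469574.
Cybb: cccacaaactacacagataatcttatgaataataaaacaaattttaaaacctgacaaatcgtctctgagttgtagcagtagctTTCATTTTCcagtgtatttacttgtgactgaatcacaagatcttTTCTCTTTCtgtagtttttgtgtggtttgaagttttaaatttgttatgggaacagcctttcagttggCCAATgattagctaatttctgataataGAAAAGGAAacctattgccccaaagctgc
Cyba lies on the minus strand of chromosome 8, and its run covers chr8:122432941-122433190.
Cyba: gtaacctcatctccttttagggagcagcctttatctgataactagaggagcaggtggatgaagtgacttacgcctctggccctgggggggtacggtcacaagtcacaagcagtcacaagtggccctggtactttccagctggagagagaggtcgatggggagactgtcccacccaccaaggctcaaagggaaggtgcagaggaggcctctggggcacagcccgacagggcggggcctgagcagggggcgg
Ncf1 lies on the minus strand of chromosome 5, and its run covers chr5:134229626-134229875.
Ncf1: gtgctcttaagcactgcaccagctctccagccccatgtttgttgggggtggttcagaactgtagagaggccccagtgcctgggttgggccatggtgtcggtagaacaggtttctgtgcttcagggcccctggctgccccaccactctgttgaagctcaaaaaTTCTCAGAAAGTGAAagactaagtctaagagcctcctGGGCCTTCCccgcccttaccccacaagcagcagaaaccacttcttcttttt
Acod1 lies on the plus strand of chromosome 14, and its run covers chr14:103046762-103047011.
Acod1: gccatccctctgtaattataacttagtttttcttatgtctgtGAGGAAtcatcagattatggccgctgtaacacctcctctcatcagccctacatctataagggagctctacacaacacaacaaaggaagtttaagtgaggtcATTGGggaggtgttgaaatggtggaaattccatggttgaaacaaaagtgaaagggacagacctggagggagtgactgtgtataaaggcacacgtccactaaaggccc

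The Cybb run held 3 matches to GAAANNGAA, which began 167, 123 and 29 bases before the start, and 1 to CCAAT, which began 56 bases before it. A match to GAGGAA lay just after the start of Cybb and is not shown. Ncf1 held 1 match to TTCNNNGAA, 88 bases before the start, which overlapped 1 to GAAANNGAA, 82 bases before it, and 1 to GGGNNTTCC, 51 bases before it. Acod1 held GAGGAA 208 bases and CCAAT 107 bases before the start, and the Cyba window held none of these letters. Over all 32851 promoter windows of 300 bases (250 before and 50 after the start), 28.3% held GAGGAA, 8.56% GAAANNGAA, 8.30% TTCNNNGAA, 5.82% GGGNNTTCC and 37.4% CCAAT. At least 3 matches to GAAANNGAA were found in 21 of the 32851 windows (0.0639%), a count made after the Cybb matches were seen. The Cybb run was 66% A and T, against 55.6% for Acod1, 45.6% for Ncf1 and 40% for Cyba, and A-rich letters such as GAAANNGAA meet more matches in such sequence. A match is a description of letters and no evidence of binding, and GENCODE places the outermost start of Cybb 18447 bases upstream of the RefSeq start used here.

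The columns stood for between 44425908 and 63817502 estimated reads. The lowest member value rested on 58 estimated reads (Acod1 in cDC1) and the highest on 111816 (Cybb in macrophages). Levels are given in the authors' scaled CPM (counts per 1000000 reads), with 95% intervals in brackets that reflect counting error alone. Where 4 values stand without a label, the first belongs to cDC1, the second to cDC2, the third to CD103int DC and the last to macrophages. The sort labels were checked against listed markers. The cDC1 receptor gene Xcr1 was at 130.5 CPM in cDC1 and at 1.72 to 9.13 CPM elsewhere, and the CD11b gene Itgam at 36.7 CPM in cDC1 and 638 to 945 CPM elsewhere. Of 8 tested cDC2 markers, however, 4 were at least 2-fold lower in the library labelled cDC2 than in that labelled cDC1 and 3 higher (median log2 difference -0.92), with Cd209a at 31.5 against 257 CPM. Of 8 markers shared by conventional DCs, 6 were lower there and 0 higher (median -2.52), Flt3, Zbtb46, Bcl11a, Spib, Dpp4 and Kit. The same 6 were lower in CD103int DC than in cDC1 (median -2.02). Of all genes tested, 9.56% were higher and 7.27% lower in cDC2 than in cDC1, and 9.16% and 5.46% in CD103int DC. The 14 macrophage markers summed to 988, 5000.0, 3470 and 4839 CPM. Of these, 4 (C1qa, C1qb, C1qc and Trem2) were at least 2-fold higher in cDC2 than in macrophages and 0 lower. C1qb was at 631 and 137 CPM and Fcgr1 at 334 and 608 CPM. The same 4 were higher in CD103int DC than in macrophages, and 5 were lower. Of all genes tested, 1.78% were higher and 6.01% lower in cDC2 than in macrophages, and 4.35% and 8.31% in CD103int DC. Against cDC1, 13 of the 14 were higher in CD103int DC and 13 in cDC2, with 0 lower in either. The macrophage column carries another name prefix than the DC columns. Should the prefix stand for a batch, batch and population cannot be told apart there. In bulk samples, fewer cells of a type that expresses a gene and less RNA per cell cannot be told apart either.

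The cDC1 library had the lowest level of 6 of the 7 members, all but Rac2, although the Ncf1 order between cDC1 and macrophages turned when columns were rescaled to equal totals. Nos2 and Acod1, at 2.08 and 1.18 CPM, were at their lowest by far there. The share of all genes that were lowest in cDC1 is not given here. Genes at 0 numbered 454 in cDC1, 19 in cDC2, 10 in CD103int DC and 20 in macrophages. The CD103int DC had oxidase genes at levels between cDC1 and macrophages for Cybb and Ncf4 and the highest level of Ncf1. Its Acod1 level was far above cDC1 but below both cDC2 and macrophages. Nos2 was highest in cDC2 and Acod1 in macrophages.

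**Figure D1:**
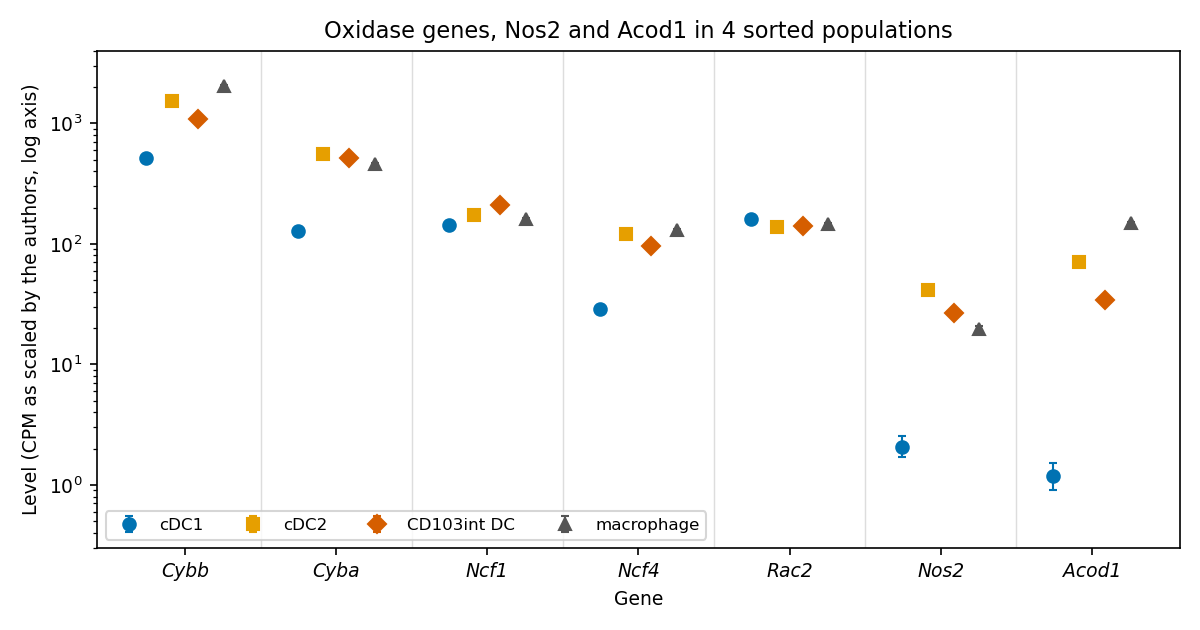
Level of 5 oxidase genes, Nos2 and Acod1 in CPM on a log axis, with 1 point per library (4 sorted populations) and bars for the 95% counting interval, mostly smaller than the point. The cDC1 points lie well below the others for Cybb, Cyba, Ncf4, Nos2 and Acod1, and beside them for Ncf1 and Rac2.

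Cybb encodes the catalytic subunit of the oxidase (ENSMUSG00000015340.10, chromosome X, 9435252 to 9487771, minus strand). The cDC1 library had it at 513 (507 to 520) CPM, the cDC2 library at 1525 (1513 to 1536), the CD103int DC library at 1078 (1069 to 1086) and the macrophage library at 2049 (2037 to 2061). The order of the libraries was thus macrophage, cDC2, CD103int DC and cDC1, with no counting intervals overlapping. CD103int DC stood 2.10-fold (2.07 to 2.13) above cDC1, and 1.90-fold below macrophages. Per kilobase of exon, Cybb ranked 339th of 11685 protein-coding genes in cDC1, 131st in cDC2, 213th in CD103int DC and 85th in macrophages.

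Cyba encodes the smaller membrane subunit, which stabilises the Cybb protein (ENSMUSG00000006519.11, chromosome 8, 122424776 to 122432930, minus strand). Its level was 127 (124 to 130.4) CPM in the cDC1 library, 558 (552 to 565) in the cDC2 library, 513 (507 to 519) for CD103int DC and 462 (456 to 468) for macrophages. Cyba did not share the order of Cybb: cDC2 was highest and the 3 populations other than cDC1 lay within 1.21-fold of each other. CD103int DC was 4.03-fold (3.93 to 4.15) above cDC1. The ratio of Cybb to Cyba per kilobase of exon was 0.722 (0.702 to 0.743) for cDC1, 0.488 (0.482 to 0.495) for cDC2, 0.376 (0.371 to 0.381) for CD103int DC and 0.793 (0.782 to 0.804) for macrophages. The lowest ratio of the membrane pair was that of the CD103int DC, and a ratio within a library does not move with the scaling of its column.

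Among the cytosolic proteins, Ncf4 and Ncf1 went separate ways. Ncf4, whose protein binds phosphoinositides of the phagosome membrane (ENSMUSG00000071715.12, chromosome 15, 78244801 to 78262580, plus strand), was at 29.0 (27.5 to 30.5), 121 (118 to 124), 95.1 (92.6 to 97.7) and 129 (126 to 132) CPM. It was low in cDC1 only, and CD103int DC stood 3.28-fold (3.10 to 3.48) above cDC1. The order of cDC2 and macrophages, 1.07-fold apart, turned with columns rescaled to equal totals. Ncf1, the organiser subunit whose phosphorylation starts the assembly (ENSMUSG00000015950.13, chromosome 5, 134220053 to 134229625, minus strand), was at 144 (140.5 to 147), 174 (170.2 to 178), 209 (205 to 212) and 161 (158 to 165) CPM. CD103int DC was highest, but its fold over cDC1 was 1.45 (1.41 to 1.49) and no pair of libraries differed 2-fold. The exons of Ncf1 overlap those of Gtf2ird2, on the opposite strand, over 408 bases, and the strand setting of the counting is not given in the sources used here. Gtf2ird2 itself was at 6.43 to 18.3 CPM. The ratio of Ncf1 to Ncf4 per kilobase of exon was 2.74 in cDC1, 0.794 in cDC2, 1.21 in CD103int DC and 0.688 in macrophages.

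Cybc1 is no member, but its protein helps the membrane core mature. It was at 86.4, 73.5, 60.0 and 91.3 CPM and was lowest in CD103int DC.

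Rac2, the GTPase of blood cells that switches the oxidase on (ENSMUSG00000033220.7, chromosome 15, 78559167 to 78572783, minus strand), was the most even member. It was at 162 (158 to 165), 138 (135 to 142), 141 (138 to 144) and 145 (142 to 148) CPM. The highest level was only 1.17 times the lowest. CD103int DC was not separated from cDC2 or from macrophages by counting error, and with columns rescaled to equal totals the differences of both CD103int DC and cDC2 from macrophages changed sign. Its widely expressed relative Rac1 was at 286, 421, 462 and 435 CPM, which made the ratio of Rac1 to Rac2 per kilobase of exon 1.22 in cDC1, 2.10 in cDC2, 2.27 in CD103int DC and 2.07 in macrophages. Rac1 shares 2309 exonic bases with Daglb on the opposite strand, which was at 44.3, 172, 228 and 112 CPM, so its level is uncertain by reads that could belong to either gene.

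Nos2 (ENSMUSG00000020826.8, chromosome 11, 78920787 to 78960254, plus strand) was at 2.08 (1.70 to 2.52) CPM for cDC1, 41.4 (39.5 to 43.3) for cDC2, 26.6 (25.3 to 28.0) for CD103int DC and 19.6 (18.4 to 20.8) for macrophages. The other 3 populations were well above cDC1, and among them the macrophage library was lowest. CD103int DC was 12.8-fold (10.5 to 15.8) above cDC1 and 1.36-fold (1.25 to 1.47) above macrophages, whereas cDC2 was 1.56-fold (1.45 to 1.66) above CD103int DC. Per kilobase of exon Nos2 ranked 10246th of 11685 protein-coding genes in cDC1, 3568th in cDC2, 4877th in CD103int DC and 5870th in macrophages. Its transcript was thus a mid-range one even where it was highest.

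Acod1 (ENSMUSG00000022126.6, chromosome 14, 103046977 to 103056573, plus strand) had the widest range of the members. The level was 1.18 (0.898 to 1.53) CPM for cDC1, 70.0 (67.6 to 72.4) for cDC2, 34.3 (32.8 to 35.8) for CD103int DC and 149 (145 to 152) for macrophages. The libraries were all set apart from each other, macrophages 2.12-fold (2.04 to 2.21) above cDC2, cDC2 2.04-fold (1.93 to 2.16) above CD103int DC, and CD103int DC 29.0-fold (22.3 to 38.3) above cDC1. Per kilobase of exon its rank went from 10287th in cDC1 to 1403rd in cDC2, 2789th in CD103int DC and 781st in macrophages. The ratio of Acod1 to Nos2 per kilobase of exon was 0.956 (0.681 to 1.33) for cDC1, 2.85 (2.69 to 3.01) for cDC2, 2.17 (2.03 to 2.32) for CD103int DC and 12.7 (12.0 to 13.6) for macrophages. The genes of nitric oxide and itaconate synthesis were near parity in cDC1 and furthest apart in macrophages.

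**Figure D2:**
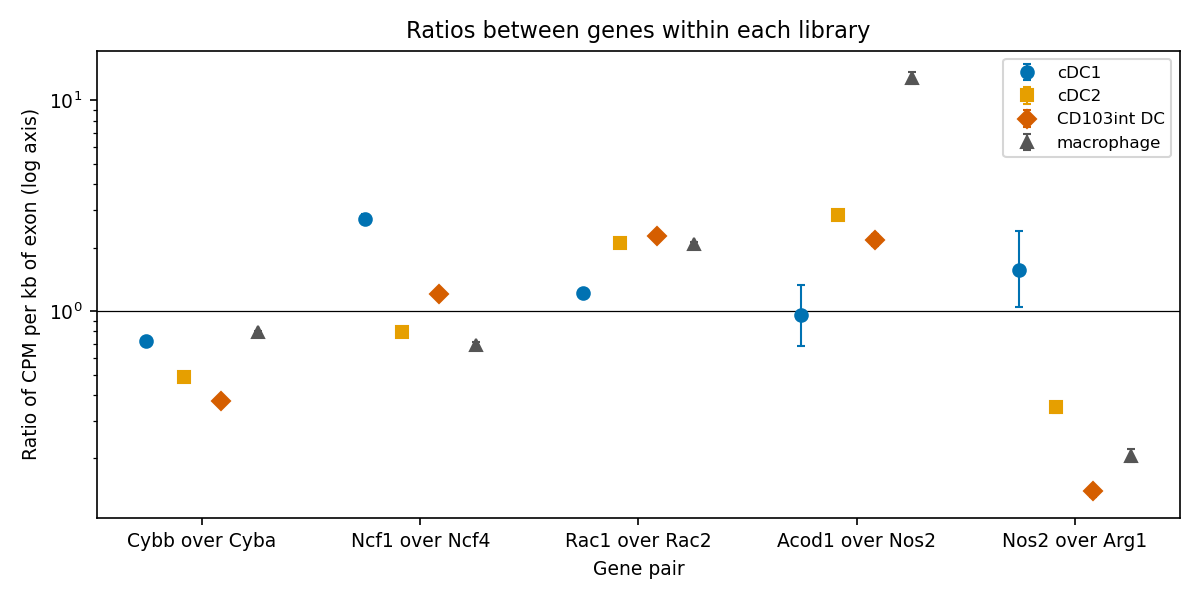
Ratio of 2 genes within each library, from CPM per kilobase of exon, on a log axis, with 1 point per library and bars for the 95% counting interval. Acod1 over Nos2 reaches 12.7 in macrophages, and Cybb over Cyba (0.376) and Nos2 over Arg1 (0.140) are lowest in CD103int DC.

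The 6 neutrophil markers measured of 16 listed summed to 18.3, 104, 68.4 and 294 CPM, in the same order of libraries as Acod1, although single genes such as Cd177 had another order. Among them the receptor gene Csf3r was at 8.87, 62.2, 33.2 and 156.6 CPM and Cd177 at 1.63, 0.733, 1.06 and 63.7 CPM, and the defining neutrophil genes S100a8, S100a9 and Ly6g were not analysed here. The 12 monocyte markers summed to 1809, 3571, 5553 and 9183 CPM, an order that was not that of Acod1. Fn1 made up 3325 CPM of that sum in CD103int DC and was at 109, 1195 and 1422 CPM in cDC1, cDC2 and macrophages. Without Fn1, the sums of the remaining monocyte markers had the order of Acod1. Ly6c2 was at 233, 236, 132 and 1371 CPM. Of 11 tested monocyte markers, 2 were at least 2-fold higher in CD103int DC than in cDC2 and 1 lower (median -0.09). Of all genes tested in that pair, 1.56% were higher and 0.665% lower. No marker of these lists was at 0 in any library. The order shared by Acod1 and the neutrophil sum was not particular to them, as Cybb, Csf1r and Il1b had it too. The part of neutrophil or monocyte RNA in the Acod1 levels was not tested. B cells also express the oxidase core; of their 7 listed markers 3 were measured, with Cd79b at 1.43 to 3.68 CPM and Ighm at 148, 30.4, 22.4 and 73.0 CPM. The 10 T and NK cell markers summed to 8.15 to 22.3 CPM.

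**Figure D3:**
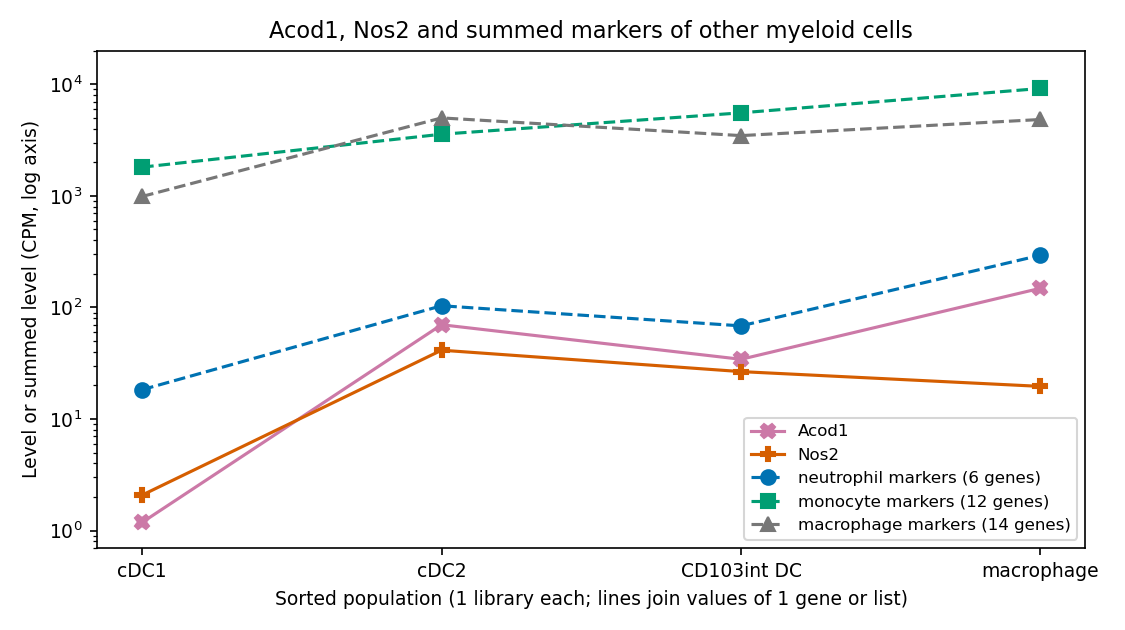
Level of Acod1 and Nos2 and summed levels of 3 marker lists, in CPM on a log axis, for the 4 libraries. Acod1 and the neutrophil sum share the order macrophage (149 and 294 CPM), cDC2, CD103int DC and cDC1 (1.18 and 18.3 CPM), while Nos2 peaks in cDC2. Other genes that are not drawn, such as Cybb and Csf1r, have that order too, and so does the monocyte sum once Fn1 is left out.

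For comparison with all genes, a gene was tested in a pair of libraries when it had at least 10 CPM in either of them, and it was counted when the difference of log2(CPM + 1) was at least 1, a 2-fold difference. All 7 members were tested in each of the 6 pairs. In CD103int DC against cDC1, 5 members were at least 2-fold higher (Cybb, Cyba, Ncf4, Nos2 and Acod1) and 0 lower, where 9.16% of the 8443 genes tested were higher and 5.46% lower. The median difference over the members was 1.68, against 0.03 over all genes tested. Cybb stood near the threshold, at 1.07, and at 0.96 with columns rescaled to equal totals. In cDC2 against cDC1 the same 5 members were higher and 0 lower, where 9.56% of genes were higher and 7.27% lower, and the median was 2.02 against 0.01. In macrophages against cDC1 these 5 were again higher and 0 lower, with 15.8% of genes higher and 9.21% lower, and the median was 1.99 against 0.09. These comparisons share the cDC1 library and are not independent of each other.

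At a stricter 4-fold difference, 3 members were higher in CD103int DC than in cDC1 (Cyba, Nos2 and Acod1) and 0 lower, where 2.78% and 1.84% of all genes tested were. In cDC2 against cDC1, 4 were higher (these 3 and Ncf4) and 0 lower, with 3.59% and 2.34% of all genes. In macrophages against cDC1, 3 were higher (Ncf4, Nos2 and Acod1) and 0 lower, with 5.57% and 2.57% of all genes. In CD103int DC against macrophages, Acod1 was the 1 member lower and 0 were higher, with 1.31% and 0.836% of all genes. No member differed 4-fold in CD103int DC against cDC2, where 0.197% of all genes were higher and 0.0123% lower, or in cDC2 against macrophages, where 0.246% were higher and 0.565% lower.

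Among the 3 populations other than cDC1 few members differed 2-fold. In CD103int DC against cDC2, 0 members were higher and 1 lower, Acod1, at a difference of -1.01 and so at the threshold itself, where 1.56% of 8119 genes were higher and 0.665% lower. With equal totals taken without Gm26917 and Gm42418, which gather reads of ribosomal RNA, the Acod1 difference was -0.999 and not counted. The member median was -0.34, against 0.02 over all genes tested, with 5 members below 0 and 2 above. Nos2 was at -0.62 and Cybb at -0.50 in this pair, each within 2-fold but lower than all but 2.50% and 4.22% of the genes tested. In CD103int DC against macrophages, 0 members were higher and 1 lower, again Acod1, at a difference of -2.08, where 4.35% of 8254 genes were higher and 8.31% lower. Cybb was at -0.93, and Nos2 went the other way, at 0.42. In cDC2 against macrophages, 1 member was higher (Nos2, 1.04) and 1 lower (Acod1, -1.08), where 1.78% of 8141 genes were higher and 6.01% lower. With columns rescaled to equal totals the Acod1 difference of this pair was -0.81, within 2-fold.

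**Figure D4:**
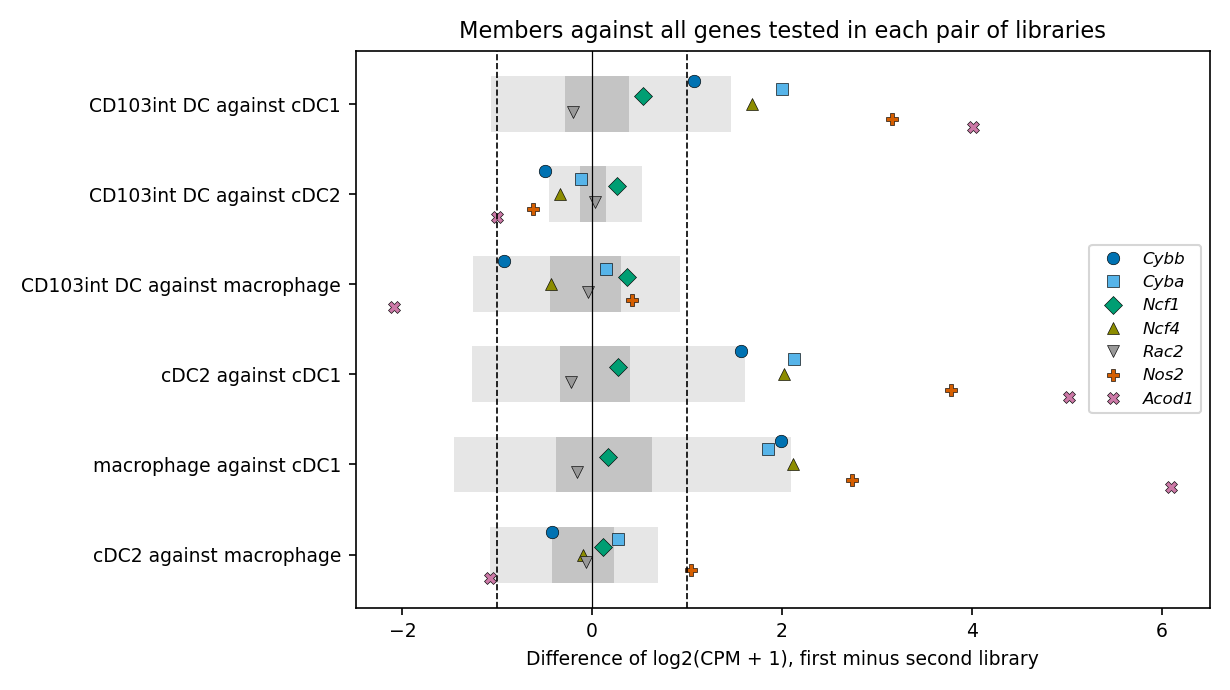
Difference of log2(CPM + 1) of each member in the 6 pairs of libraries (first minus second), over bars for the middle 50% (dark) and 90% (light) of all genes tested; dashed lines mark 2-fold. In the 3 pairs with cDC1, Nos2 (2.74 to 3.78), Acod1 (4.02 to 6.10) and, more narrowly, Ncf4 (1.68 to 2.12) lie beyond the light bar. Rac2 and Ncf1 lie inside 2-fold in all pairs.

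The genes with the profile nearest to each member were sought among 8724 genes that reached 10 CPM in some library, by the distance of mean-centred log2(CPM + 1) over the 4 libraries. Only the 5 members whose range was at least 2-fold were searched this way, and with 4 points many genes lie close by. Nearest to Cybb were Lcp2, an adaptor of immunoreceptor signalling (75.7, 217, 159 and 295 CPM, distance 0.05), Il10rb and Abtb2. Cyba was nearest to Cstb, an inhibitor of cathepsins (34.7, 174, 153 and 138 CPM, 0.12), the inhibitory Fc receptor gene Fcgr2b and Emilin1, and Ncf4 to the matrix gene Tgfbi (521, 2185, 1681 and 2199 CPM, 0.06), Cndp2 and Sdc4. Nos2 and Acod1 had no match as close as these. The nearest to Nos2 were Cd300ld5 (listed at 0 in cDC1, then 13.2, 6.99 and 7.32 CPM, 0.35), Tspan32 and Gm49369. For Acod1 the nearest lay further off still. They were the complement gene C3 (27.4, 565, 349 and 1328 CPM, 0.53), the formyl peptide receptor gene Fpr2 (0.877, 41.1, 15.9 and 80.2 CPM, 0.63) and the complement gene Cfb (17.3, 412, 224 and 679 CPM, 0.63). Among the members themselves, Ncf4 lay nearest to Cyba (0.42) and to Cybb (0.49), and Nos2 and Acod1 lay 2.47 apart.

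The other genes of the pathway were read from lists. Of the 15 measured oxidase partners and regulators, 1 was at least 2-fold higher in CD103int DC than in cDC1, the voltage-gated proton channel gene Hvcn1, which offsets the charge the oxidase moves (27.4, 72.4, 59.1 and 31.9 CPM), and 0 were lower (median 0.11). Of all genes tested in that pair, 9.16% were higher and 5.46% lower (median 0.03). None of the 15 differed 2-fold between CD103int DC and cDC2 (median 0.05), where 1.56% of all genes tested were higher and 0.665% lower. Against macrophages 2 were lower, Rap1a (268.6, 212, 167 and 338 CPM) and the protein kinase C gene Prkcb (41.1, 40.9, 28.5 and 60.5 CPM), and 0 higher (median -0.39). Beside them, 8.31% of all genes tested were lower and 4.35% higher (median -0.07). Prkcd, a kinase that phosphorylates Ncf1, was at 355, 593, 596 and 849 CPM, and the exchange factor gene Vav1 at 149, 212, 161 and 322 CPM. Pak1, another kinase, was at 107, 115, 122 and 69.4 CPM. Of the other oxidase and synthase genes, 1 of 11 listed was measured: Nos1, at 1.92, 0.992, 0.244 and 0.165 CPM.

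Among genes that supply or compete for arginine, Arg1, Slc7a2 and Arg2 spanned the widest ranges. Arg1, which breaks arginine down to ornithine and so uses the substrate of Nos2, was at 0.673, 59.7, 96.2 and 48.0 CPM and highest in CD103int DC, 143-fold (102 to 208) above cDC1. The ratio of Nos2 to Arg1 per kilobase of exon was 1.56 (1.04 to 2.39) for cDC1, 0.350 (0.330 to 0.371) for cDC2, 0.140 (0.132 to 0.148) for CD103int DC and 0.206 (0.192 to 0.222) for macrophages. Slc7a2, an arginine transporter, was at 4.16, 59.6, 69.3 and 21.7 CPM and was 3.19-fold (2.99 to 3.41) higher in CD103int DC than in macrophages. Gch1, which starts the synthesis of the cofactor tetrahydrobiopterin, was at 34.2, 33.1, 30.3 and 77.9 CPM and was highest in macrophages, where Nos2 was not. Qdpr, which regenerates that cofactor, went the other way (28.8, 40.2, 49.7 and 17.2 CPM). Arg2 was at 0.326, 2.87, 1.81 and 13.5 CPM, and Ass1, which rebuilds arginine from citrulline, at 269.6, 522, 386 and 475 CPM. In all, of 16 tested genes 2 were higher and 0 lower in CD103int DC than in cDC1 (median 0.06), beside 9.16% and 5.46% of all genes. None differed 2-fold from cDC2 (median 0.09), where only 1.56% of all genes tested were higher and 0.665% lower. Of 17 tested against macrophages, 2 were higher and 2 lower (median 0.16), beside 4.35% and 8.31% of all genes. In macrophages against cDC1, 4 of 17 were higher and 0 lower (15.8% and 9.21% of all genes). In cDC2 against macrophages, 2 of 17 were higher and 2 lower (1.78% and 6.01%). In cDC2 against cDC1, 2 of 16 were higher and 0 lower (9.56% and 7.27%).

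Of 18 tested genes of citrate metabolism around Acod1, 1 was at least 2-fold higher in CD103int DC than in cDC1, the cytosolic isocitrate dehydrogenase gene Idh1 (27.0, 60.5, 77.2 and 53.4 CPM), and 1 lower, Suclg2 (24.0, 10.8, 10.7 and 10.5 CPM), with a median of -0.00 and beside 9.16% of all tested genes higher and 5.46% lower. None differed 2-fold from cDC2 or from macrophages (medians 0.05 and 0.34). Of all genes tested, 1.56% were higher and 0.665% lower against cDC2, and 4.35% and 8.31% against macrophages. Aco1 was at 43.5, 64.8, 75.9 and 47.7 CPM, Sdhd, a subunit of the succinate dehydrogenase that itaconate inhibits, at 69.1, 101.7, 109.7 and 76.0 CPM, Idh3a at 52.3, 44.4, 47.5 and 31.0 CPM and Idh2 at 47.5, 35.5, 34.6 and 30.2 CPM. The ranges of these last 4 genes were under 2-fold while Acod1 spanned 126-fold.

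Antioxidant genes and genes of the NRF2 response, which limit damage by oxidants, were often higher in CD103int DC than in cDC1. In this pair 9.16% of all genes tested were higher and 5.46% lower (median 0.03). Of the 25 list genes measured, 12 were higher by 2-fold or more and 0 were lower (median 0.84). They included the heme oxygenase gene Hmox1 (38.1, 152, 210.3 and 164 CPM), the cystine transporter gene Slc7a11 (39.0, 187, 189 and 81.0 CPM), the sulfiredoxin gene Srxn1 (7.05, 31.9, 38.2 and 32.1 CPM), the mitochondrial superoxide dismutase gene Sod2 (40.6, 136, 103 and 190.2 CPM) and Nfe2l2, which encodes NRF2 itself (60.6, 257, 198 and 475 CPM). In cDC2 against cDC1, 9 of the 25 were higher (9.56% of all genes tested). In macrophages against cDC1, 8 of 24 were higher (15.8% of all genes tested), with 0 lower in either pair. None of the 25 differed 2-fold between CD103int DC and cDC2 (median 0.07), where only 1.56% of all genes tested were higher and 0.665% lower. Against macrophages 1 was higher, Slc7a11, and 2 lower, Nfe2l2 and the glutathione reductase gene Gsr (80.4, 89.5, 58.3 and 289 CPM), with a median of 0.37. Of all genes tested against macrophages, 4.35% were higher and 8.31% lower.

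Of the 18 tested inducers and transcription factors of these genes, 7 were at least 2-fold higher in CD103int DC than in cDC1 and 3 lower (median 0.39). Of all genes tested in that pair, 9.16% were higher and 5.46% lower (median 0.03). In cDC2 against cDC1, 6 of the 18 were higher and 3 lower (9.56% and 7.27% of all genes). In macrophages against cDC1, 9 were higher and 1 lower (15.8% and 9.21% of all genes). The factor gene Cebpb was at 44.5, 457, 409 and 857 CPM, the Toll-like receptor genes Tlr2 and Tlr4 at 45.4, 200.4, 145 and 435 CPM and at 13.7, 52.4, 52.6 and 59.5 CPM, and the lipopolysaccharide co-receptor gene Cd14 at 41.0, 228, 250.6 and 594 CPM. The cytokine genes Tnf and Il1b were at 5.61, 54.3, 47.2 and 77.3 CPM and at 232, 946, 735 and 2495 CPM. The genes that were lower in CD103int DC than in cDC1 were Jak2, Irf8 and Nfkb1. Irf8, which drives cDC1 development and is known to act on the Cybb promoter, was at 704, 226, 193 and 267.5 CPM and so highest where Cybb was lowest. Outside cDC1, Irf8 and Cybb had the same order, macrophage, cDC2 and CD103int DC. A link between the levels of these genes was not tested. None of the 18 differed 2-fold between CD103int DC and cDC2 (median -0.15), where only 1.56% of all genes tested were higher and 0.665% lower. Against macrophages 0 were higher and 6 lower (median -0.80), Jak2, Irf1, Tlr2, Cd14, Cebpb and Il1b. Of all genes tested against macrophages, 4.35% were higher and 8.31% lower (median -0.07).

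**Figure D5:**
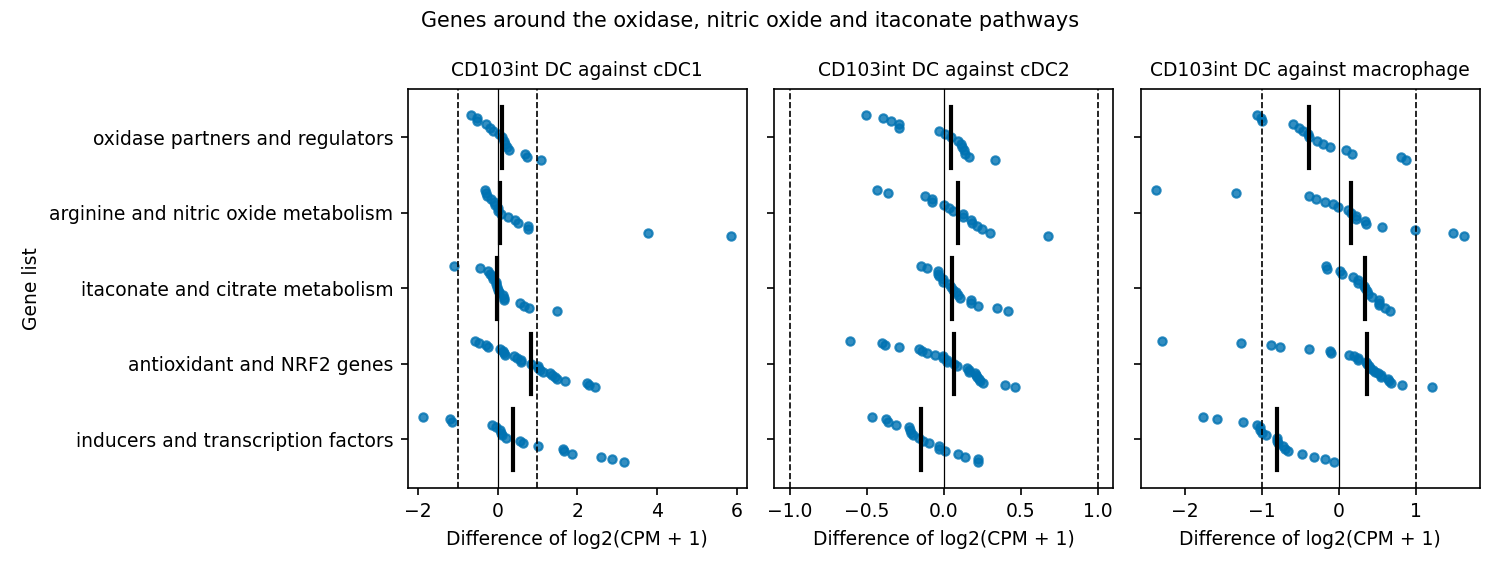
Difference of log2(CPM + 1) of each tested gene of 5 lists (points) with the list median (bar) for CD103int DC against cDC1, cDC2 and macrophages; dashed lines mark 2-fold and the horizontal scales differ. No gene passes 2-fold against cDC2, where only 1.56% of all genes tested were higher and 0.665% lower. The antioxidant median is 0.84 against cDC1.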

How the data were processed

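RNA from 1 library per population was measured by bulk RNA sequencing. Per the labels' protocols, column-extracted and DNase-treated total RNA went into a directional library kit. The authors deposited 1 table of an expression signal. By the table's name it holds filtered CPM with TMM scaling (trimmed mean of M values). The aligner, counter, strand setting, filter rule and genome build were not given in the sources used here. Each of the 13976 identifier and symbol pairs matched GENCODE release M21 (GRCm38), which gave positions and exon lengths. The value of 1 read was recovered from the smallest steps of each column (70.6% to 79.0% of values above 0 were whole multiples, at a tolerance of 0.001 of a step). The rest were fractions of a read, so no count test was run. Intervals are 95% Poisson or binomial ones on the rounded estimated reads; reads amplified without molecular identifiers need not be independent molecules. Differences are on log2(CPM + 1), which understates changes of low genes; folds are ratios of CPM.

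The members, lists and named genes were chosen with earlier results of these data known. Up to 6 genes with the widest range were named per pathway list (with Rac1 in any case), up to 4 per marker list, and the 3 nearest profiles per member. Lists for cDC1, cDC2 and pan-cDC cells summed to 3681, 1486 and 1701 CPM in cDC1 and to 1453, 2719 and 1443 CPM in CD103int DC, where Itgax alone gave 1280 CPM of the last sum. In CD103int DC, 4 of 8 tested cDC2 markers exceeded their cDC1 level at least 2-fold and 4 fell below it by as much. Of all genes tested in that pair, 9.16% were higher and 5.46% lower. Some genes are not reported here. The counting rule was run on simulated reads that had counting error alone and 4-fold changes planted in well-measured genes. That run could not show how the rule behaves near 2-fold, at low levels or with variation between libraries. Python 3.11.15, pandas 2.3.3, numpy 2.4.6 and scipy 1.17.1 were used.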

Additional observations from a re-analysis of the deposited data

How the results depend on the processing

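Each count of members was recomputed under 7 alternatives, and 76 of 84 such counts lay within 1.5 times the reported one. At a 4-fold threshold, 3 members were higher in CD103int DC and 3 in macrophages than in cDC1. The counts of 1 lower in CD103int DC against cDC2 and of 1 higher and 1 lower in cDC2 against macrophages became 0 each. With columns rescaled to equal totals, 0 members were lower in cDC2 than in macrophages. With equal totals taken without Gm26917 and Gm42418, 0 were lower in that pair and 0 in CD103int DC against cDC2. Under these rescalings the member no longer counted was Acod1, at -0.81 and -0.89 in cDC2 against macrophages and at -0.999 in CD103int DC against cDC2. Median-ratio scaling and a pseudocount of 0.1 moved no count beyond that limit. A minimum of 1 CPM and no minimum could move none, because all 7 members were already tested in every pair at 10 CPM. Their counts among the 84 are therefore no sign of stability. Equal totals moved the median over all genes by -0.11 (CD103int DC) and -0.38 (macrophages) against cDC1, and by 0.27 (CD103int DC) and 0.28 (cDC2) against macrophages. Of 168 recomputed differences of single members 8 changed sign, none of them past 2-fold: Rac2 in both DC libraries against macrophages, Ncf1 in macrophages against cDC1 and Ncf4 in cDC2 against macrophages, each under both rescalings to equal totals. Another pseudocount cannot change a sign, so the differences at 0.1 among the 168 are no sign of stability either. No paired analysis was possible because each population had 1 library. Only Nos2 and Acod1 in cDC1, at 102 and 58 estimated reads, were limited by depth. Animals, sorts and libraries vary by an amount these data do not show.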
